A study of Mus musculus with 2 samples.

Results

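The PYHIN genes Aim2, Ifi202b, Ifi203, Ifi204, Ifi207 and Mndal were examined in senescent and control AML12 cells by RNAseq. They are 6 of the 35275 genes in the deposited table, and they were chosen by name with their read-count ratio between these 2 libraries already known. All 6 were found in the table and all 6 had at least 10 reads over both libraries. AML12 is a non-transformed mouse hepatocyte line, which the labels describe as coming from the liver of male CD-1 mice aged 3 months. The line was made from mice that carry a transgene for transforming growth factor alpha, and both groups were grown in medium with serum, insulin, transferrin, selenium and dexamethasone. The control cells were untreated. The senescent cells had received hydrogen peroxide on 6 days, 1 mM the first time and 0.75 mM thereafter, for 1 h followed by 23 h of recovery. Each condition is a single library made from a pool of 3 samples, so that every difference below is one between 2 libraries, without a replicate check or a p-value.

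PYHIN proteins are found in mammals and are encoded by a cluster of closely related genes. Most members carry a pyrin domain at the amino end, which binds other pyrin domains, and 1 or more HIN domains at the carboxyl end, which bind double-stranded DNA. AIM2 is a receptor for DNA in the cytosol. It gathers the adaptor ASC and caspase-1 into an inflammasome, which processes interleukin-1 beta and interleukin-18 and cleaves gasdermin D. IFI204 has been described as a DNA sensor upstream of the adaptor STING and of interferon production, and as a relative of human IFI16. The protein of Ifi202b has HIN domains but no pyrin domain and can hold AIM2 back from ASC. MNDAL is named for its likeness to the myeloid cell nuclear differentiation antigen. Ifi203 and Ifi207 encode less studied members with a pyrin and a HIN domain. Many genes of the family were first found as interferon-inducible, and the family is best known in macrophages and other blood cells. The number of its genes differs between mouse strains.

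The control library held 28021941 counted reads and the senescent library 25738075. Counts were scaled by the TMM method of edgeR, and the log2 ratio (senescent over control) of each gene was taken after adding a prior count of 1. Levels of 1 gene in both libraries are given as CPM, the reads scaled by the TMM library size. The 95% Clopper-Pearson interval of the ratio covers counting error only, because each condition has 1 library. PCR copies cannot be told from separate molecules without molecular identifiers, so the interval may understate even the counting error. Genes with 10 or more reads in all, 14383 of them, are called tested here although no test was made. A tested gene was called higher or lower if its ratio lay beyond 1.5 on the log2 scale, the cutoff in the methods of the study, and its interval excluded 0. Of these genes, 2.71% were called higher and 5.6% lower. The hepatocyte regulator Hnf4a (8187 control and 7705 senescent reads) and the epithelial keratins Krt8 and Krt18 were well detected in both libraries. The macrophage markers Adgre1, Clec4f, Timd4 and Cx3cr1, which define liver and tissue macrophages, had 0 reads in both, whereas Ptprc and Csf1r were called higher in senescent cells and Cd14 was abundant in both libraries, as described with the other markers.

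The genes lie together on chromosome 1 of GRCm38. From Aim2 to Ifi205, the outermost PYHIN genes, the GENCODE M21 annotation places 21 genes between positions 173350879 and 174031810, of which 14 are PYHIN genes or a PYHIN pseudogene. Only these 14 have counts in the deposited table, so nothing can be said about the other genes of the segment. Of the 14, 8 had at least 10 reads. Aim2 (ENSMUSG00000037860) runs from 173350879 to 173466040 on the plus strand. The other members run on the minus strand. Ifi207 (ENSMUSG00000073490) lies from 173723427 to 173741747, Ifi204 (ENSMUSG00000073489) from 173747293 to 173766943 and Ifi202b (ENSMUSG00000026535) from 173962568 to 173982744. Mndal (ENSMUSG00000090272) is annotated from 173849126 to 173942491, because 1 of its 10 transcripts begins at the start of Ifi203 (ENSMUSG00000039997, from 173920407 to 173942672). The exons of Mndal and Ifi203 overlap by 37 bases on the same strand, and Ifi211 lies inside the Mndal gene without a shared exon base. All 8 genes are protein coding, and their reads come from merged exons between 1697 bases long for Ifi202b and 6706 bases for Ifi203.

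The likeness of the members can be read at the start of their coding sequences. The lines below give 72 coding bases from the GENCODE M21 transcripts, compared position by position with Ifi203. The first base shown is coding base 1 for Mndal and coding base 4 for the others, and capitals mark bases that differ from Ifi203.
Ifi203: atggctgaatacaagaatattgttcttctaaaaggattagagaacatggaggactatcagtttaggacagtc
Mndal: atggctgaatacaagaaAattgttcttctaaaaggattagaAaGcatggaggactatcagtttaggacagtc
Ifi204: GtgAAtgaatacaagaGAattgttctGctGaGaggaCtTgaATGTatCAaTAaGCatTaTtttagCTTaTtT
Ifi211: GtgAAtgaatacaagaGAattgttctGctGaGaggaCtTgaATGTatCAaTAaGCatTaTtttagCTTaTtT
Ifi207: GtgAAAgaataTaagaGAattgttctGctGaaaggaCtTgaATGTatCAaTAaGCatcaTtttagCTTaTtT
Aim2: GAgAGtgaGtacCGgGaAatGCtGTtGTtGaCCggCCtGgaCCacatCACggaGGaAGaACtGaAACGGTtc

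Mndal differed from Ifi203 at 3 of the 72 positions. Ifi204 and Ifi211 had the same bases at all 72, and Ifi207 differed from this pair at 4. Aim2 differed from Ifi203 at 39 positions, and Ifi202b, whose protein lacks the pyrin domain, could not be lined up with the others here (50 differences). Over the coding sequence as a whole, a local alignment of Ifi204 with Ifi211 covered 96.5% of the shorter sequence at 97.1% identity. That of Ifi204 with Mndal covered 47.9% at 96.2% identity, and that of Ifi203 with Mndal 34.5% at 93.9%. Ifi207 aligned with Ifi203 over 71.2% of the shorter sequence at 89.3% identity. With Ifi211 it aligned over 36.2% at 94.4%, and with Ifi204 over 33.3% at 93.9%. Ifi202b aligned with Ifi204 over 89.2% of its coding sequence, at 78.7% identity. Aim2 aligned with no other member over more than 17.2% of the shorter sequence.

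Since reads from such genes can be assigned to the wrong copy or discarded, windows of 50 bases that also occur in a transcript of another gene were counted for each member. Ifi202b had none among 1648 windows. In Aim2 0.742% of the windows recurred, none of them in a PYHIN gene. The share was 7.29% for Ifi207, 12.4% for Ifi203, 19.6% for Mndal and 20.0% for Ifi204. Most of the windows that Ifi203 shared were with the pseudogene Ifi203-ps, and those of Ifi204 were mainly shared with Ifi211. Ifi211 itself, which is no member, had 72.8% of its windows in other genes. With windows of 100 bases the share was 10.7% for Ifi204, 6.38% for Mndal, 2.84% for Ifi203 and 0.79% for Ifi207. Among the members, Ifi202b, Aim2 and Ifi207 thus had the smallest shares of recurring windows. The windows were exact matches between annotated transcripts, so reads placed with mismatches were not covered for any gene. Differences between the annotation and the sequences of the AML12 cells were not covered either. The split of reads among Ifi204, Ifi211 and Mndal is uncertain.

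**Figure D1:**
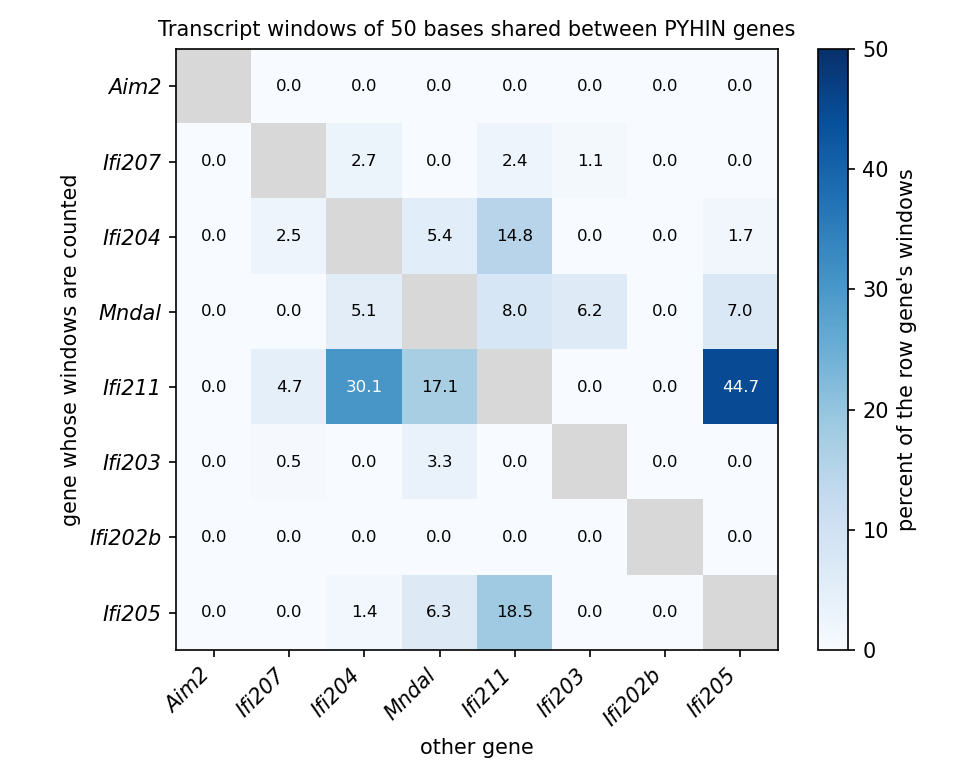
Share of the 50-base windows of each gene's transcripts (rows, in percent) that also occur in transcripts of another PYHIN gene (columns), for the 8 family genes with at least 10 reads; grey marks a gene with itself. Rows for Aim2 and Ifi202b are at 0 throughout, and Ifi211 shares 44.7% of its windows with Ifi205 and 30.1% with Ifi204.

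The promoters of the members were compared because several of the genes differed in the same direction, and the segments with and without a response element are shown. RefSeq windows on GRCm38.p6, from 250 bases before a start to 50 after it, were at hand for 5 of the 6 members, with Ifi204 missing. They were searched on both strands for the interferon-stimulated response element (ISRE), which was taken as GAAA, any 2 bases and a second GAAA, and for the interferon-gamma activated site (GAS), TTCNNNGAA. Lines below give the 110 bases before the start, 5′ to 3′ on the gene's strand, for the members, for Ifi211 and for Ifi213, a PYHIN gene without reads. Capitals mark the ISRE letters.
Ifi207, chr1:173741810-173741919, minus strand: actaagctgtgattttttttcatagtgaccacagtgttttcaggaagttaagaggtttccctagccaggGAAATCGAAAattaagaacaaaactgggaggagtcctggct
Mndal, chr1:173880188-173880297, minus strand: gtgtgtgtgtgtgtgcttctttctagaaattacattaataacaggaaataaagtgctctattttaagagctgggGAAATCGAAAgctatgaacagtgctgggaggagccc
Ifi203, chr1:173942493-173942602, minus strand: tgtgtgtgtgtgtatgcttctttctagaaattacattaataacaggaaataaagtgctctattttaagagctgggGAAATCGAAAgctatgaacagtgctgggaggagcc
Ifi211, chr1:173913047-173913156, minus strand: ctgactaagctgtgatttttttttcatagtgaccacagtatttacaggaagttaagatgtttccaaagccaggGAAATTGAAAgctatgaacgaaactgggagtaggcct
Ifi213, chr1:173599273-173599382, minus strand: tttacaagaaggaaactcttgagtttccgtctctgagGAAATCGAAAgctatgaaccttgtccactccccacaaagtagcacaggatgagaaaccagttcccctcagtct
Aim2, chr1:173420494-173420603, plus strand: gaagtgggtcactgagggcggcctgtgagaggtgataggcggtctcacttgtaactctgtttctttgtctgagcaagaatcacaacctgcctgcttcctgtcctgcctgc
Ifi202b, chr1:173982845-173982954, minus strand: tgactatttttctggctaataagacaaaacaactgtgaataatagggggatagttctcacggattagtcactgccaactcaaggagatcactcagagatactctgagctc

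The same letters, GAAATCGAAA, stood 41 bases before the start of Ifi207, 36 before that of Mndal and 35 before a start of Ifi203. Ifi203 and Mndal each have another annotated start, and the window of the other Mndal start holds a different match on the opposite strand. The 250 bases upstream of Mndal and of this Ifi203 start aligned over 239 bases at 97.5% identity, and those of Ifi207 and Ifi211 over 246 bases at 87.8%. No ISRE match was found in the windows of Aim2 and Ifi202b. The Ifi202b window held a GAS match 148 bases before the start, outside the part shown. An ISRE match was present in 3.44% of all 32851 windows and a GAS match in 8.3%, or in 3.99% and 9.55% of the 27025 genes they belong to. Among PYHIN genes, 9 of the 12 with a window had an ISRE match. These included Ifi206, Ifi208, Ifi213 and Ifi214, which had 0 reads in both libraries. In Ifi206 the letters GAAATCGAAA stood 40 bases before the start, as near to it as in the members. The letters occurred both in members that were far higher in senescent cells and in relatives that were not detected. All of these are letters of the reference genome, and the sequences in the AML12 cells, described as from CD-1 mice, were not examined. Whether the element plays a part in the ratios was not tested. Searches for AP-1 (TGANTCA), NF-kB (GGG and CC with any 5 bases between) and a TATA box (TATAAA) found matches in 2, 2 and 1 of the 5 members. The shares of all genes with a window were 8.97%, 53.5% and 15.7%. The TATA letters of the 1 member, Ifi202b, began 42 and 44 bases after the start and not before it.

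**Figure D2:**
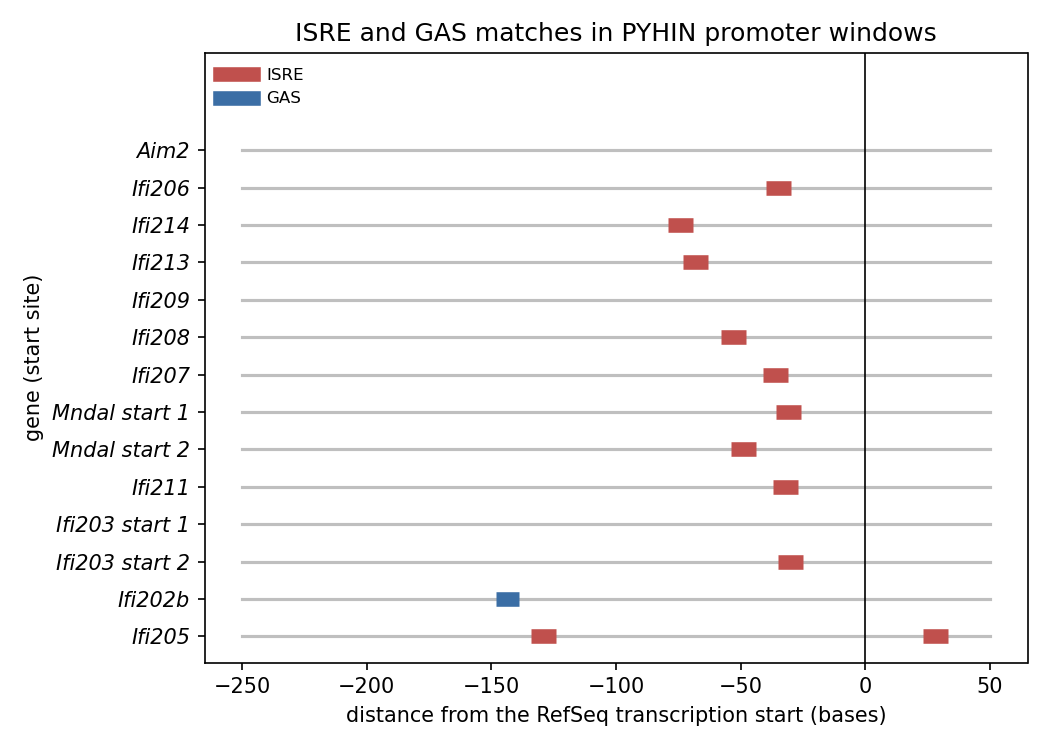
Position of ISRE (red) and GAS (blue) letter matches in the RefSeq promoter windows of 12 PYHIN genes, with the distance from the transcription start in bases on the horizontal axis; genes with 2 annotated starts have 2 rows. ISRE matches sit 35 to 41 bases before the start in Ifi206, Ifi207, Ifi211, Mndal start 1 and Ifi203 start 2. Of these genes, Ifi206 had no reads in either library. Aim2 has no match of either kind.

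Levels were compared between the genes per length, as RPKM, which is the CPM divided by the merged exon length in kb. In control cells Ifi202b stood first with an RPKM of 10.7 (95% Poisson interval 9.79 to 11.6, counting error only). Ifi204 followed with 3.19 (2.85 to 3.55) and Ifi203 with 0.913 (0.784 to 1.06). Mndal was at 0.445, Aim2 at 0.246 and Ifi207 at 0.201. The intervals of Mndal and Aim2 overlapped, as did those of Aim2 and Ifi207. Overlap does not by itself show that 2 levels are alike, and the order of these neighbours was not tested. In senescent cells Ifi202b was again first, at 24.4 (22.9 to 25.9). Ifi203, Ifi207 and Ifi204 came next at 4.13, 4.11 and 3.61, and their intervals overlapped. Mndal was at 1.99 and Aim2 last at 1.07 (0.864 to 1.31). Ifi207 thus moved from a level near that of Aim2 in control cells into the group below Ifi202b in senescent cells. Taking the length from windows of 50 bases found in no other gene gave the same order in control cells and exchanged only Ifi204 and Ifi207 in senescent cells.

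**Figure D3:**
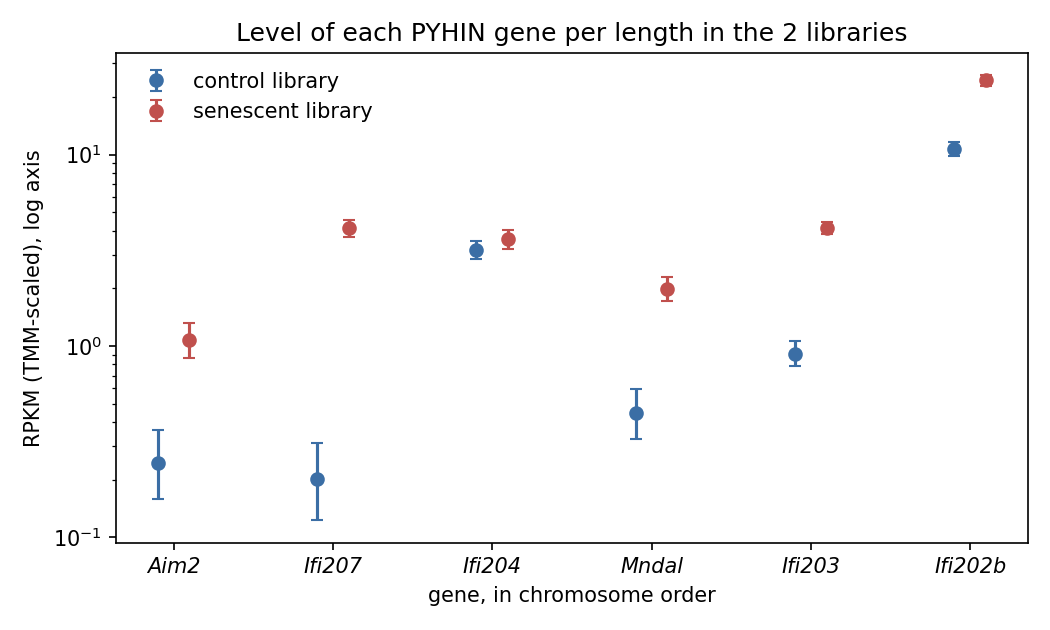
RPKM of each gene (log axis) in the control library (blue) and the senescent library (red), with 95% Poisson intervals for counting error and genes in chromosome order. Ifi202b is highest in both libraries, Ifi204 is nearly level, and Ifi207 spans from 0.201 to 4.11.

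The reads on the 6 genes together went from 1127 in control cells to 2654 in senescent cells. Of the 6, Aim2, Ifi203, Ifi207 and Mndal were called higher in the senescent library and none was called lower, beside 2.71% of all tested genes called higher. With a threshold of 1 Ifi202b was called as well, 5 of 6 beside 5.09%, and with a threshold of 2 the number was 4 beside 1.52%. Because the genes were selected on this contrast, nothing is read from these counts. The median log2 ratio of the 6 was 2.11, beside -0.02 for all tested genes. In bulk RNA a higher level per cell and a larger share of cells that express a gene cannot be told apart.

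Ifi207 differed most. Control cells gave 20 reads and senescent cells 349, a CPM of 0.688 against 14.1. The log2 ratio was 4.28 (95% interval 3.71 to 5.08), or 19.5-fold. Only 18 of the tested genes had a higher ratio, since Ifi207 was at rank 19 of 14383. Its control level was low but above the floor of 3 reads used here.

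Ifi203 had 178 control and 687 senescent reads, and its log2 ratio was 2.17 (1.94 to 2.42). Its neighbour Mndal had 47 and 179 reads, with a log2 ratio of 2.13 (1.69 to 2.65). The ratios of this pair, which share near-identical upstream sequence and part of their coding sequence, were indistinguishable within counting error. Their sum, which does not depend on how reads were split between them, went from 225 to 866 reads (log2 ratio 2.17, interval 1.96 to 2.39). Adding the pseudogene Ifi203-ps to Ifi203 left the log2 ratio at 2.18.

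Aim2, the inflammasome sensor, was counted 25 times in control and 93 times in senescent cells. This was the thinnest count of the 6 in senescent cells, a CPM of 0.86 against 3.75, and the interval of its 4.22-fold difference ran from 2.78 to 7.08. Its rank of 191 among tested genes was close to those of Ifi203 (166) and Mndal (176).

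Ifi202b carried the most reads in both libraries, 527 in control and 1027 in senescent cells. Its log2 ratio was 1.19 (1.04 to 1.35), a 2.28-fold higher level, and fell short of the threshold of 1.5. No 50-base window of Ifi202b recurs in another annotated transcript. Gene copies that the annotation lacks, such as those of another mouse strain, were not covered by this search.

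Ifi204, the relative of IFI16, had 330 control and 319 senescent reads. Its log2 ratio of 0.18 had an interval of -0.05 to 0.41, and it was the only one of the 6 whose interval held 0. A difference larger than 1.33-fold higher was outside this interval. With the reads of Ifi211, the gene it shares most windows with, the counts were 465 and 506 and the log2 ratio 0.35 (0.17 to 0.54).

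**Figure D4:**
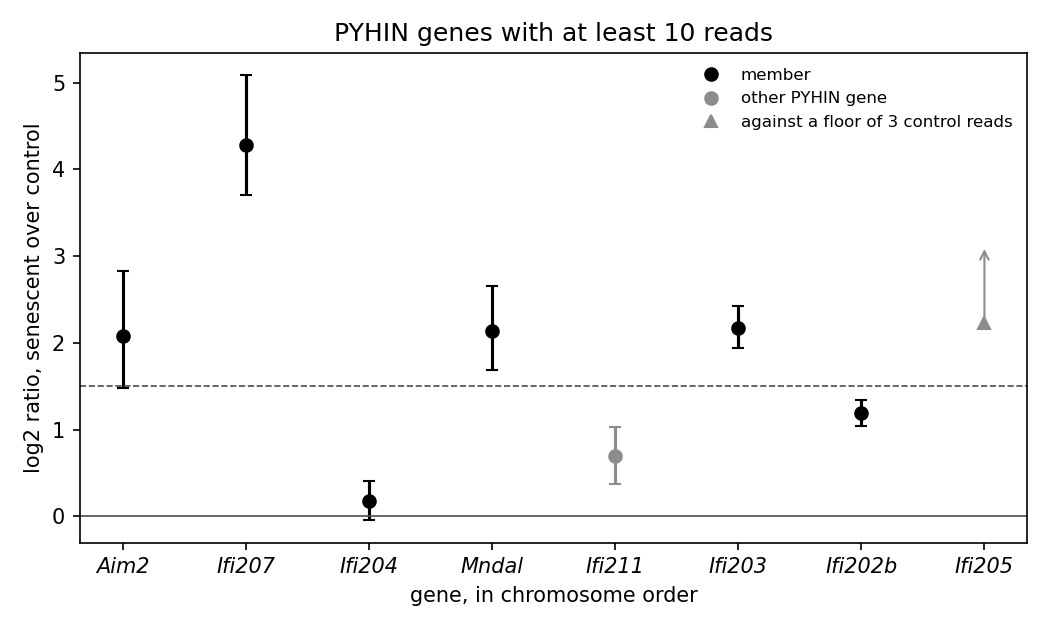
log2 ratio of senescent over control (vertical axis) for the 8 PYHIN genes with at least 10 reads, in chromosome order, with 95% Clopper-Pearson intervals for counting error; black marks the 6 genes of the report, grey the other family genes, and the triangle with an arrow the ratio of Ifi205 against a floor of 3 control reads. Ifi207 stands highest at 4.28 and Ifi204 lowest at 0.18, and the dashed line marks the threshold of 1.5.

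The make-up of the family differed between the libraries, a comparison that does not depend on scaling. Ifi204 gave 29.3% of the reads on the 6 genes in control cells (95% exact interval 26.6 to 32.0) and 12.0% in senescent cells (10.8 to 13.3). The share of Ifi207 was 1.77% (1.09 to 2.73) in control and 13.1% (11.9 to 14.5) in senescent cells. Ifi203 went from 15.8% to 25.9% of the family reads, with intervals that did not overlap. Ifi202b remained the largest contributor, with 46.8% and 38.7%. Aim2 held 2.22% and 3.5%, and the intervals of its shares overlapped, which does not show that the shares were alike.

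The summed reads of the 6 genes gave a log2 ratio of 1.46 (1.36 to 1.57), or 2.76-fold.  Leaving out 1 gene at a time gave summed log2 ratios from 1.28 without Ifi203 to 1.78 without Ifi204, and 1.29 without Ifi207.

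Of 8 other PYHIN genes and pseudogenes in the table, 4 had at least 1 read. For Ifi211 the counts were 135 in control and 187 in senescent cells (log2 ratio 0.70, interval 0.37 to 1.03). Ifi205, next to Ifi202b on the chromosome, had 0 control and 12 senescent reads. It was 4.69-fold higher with the control library set at the floor of 3 reads, and the interval of its ratio began at 3.26-fold. Ifi209 had 0 and 4 reads and Ifi203-ps 1 and 8, both under the minimum of 10 reads. Ifi206, Ifi208, Ifi213 and Ifi214 had no reads. The floor of 3 reads used here equals a CPM of 0.103 in control and 0.121 in senescent cells. All 10 PYHIN genes with reads together gave a log2 ratio of 1.41 (1.32 to 1.51).

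Of the partners and products of AIM2 in the inflammasome, Casp1, Il18 and Gsdmd were tested. None of them was called higher, beside 2.71% of all tested genes, and Pycard and Il1b had too few reads to be called. Pycard, which encodes the adaptor ASC, had 0 reads in both libraries, and 12.8% of its exon bases overlap another gene. Casp1, the protease of the complex, had 19 control and 2 senescent reads and was called lower (log2 ratio -2.55, interval -6.16 to -0.97). Il1b had 0 and 1 reads, which is under the floor of 3 reads, so that no fold was taken. Il18 had 71 and 33 reads (log2 ratio -0.86, interval -1.52 to -0.26). Gsdmd, the gene of the pore-forming gasdermin D, was well expressed, with 8740 and 4614 reads and a log2 ratio of -0.69. Of 27 genes listed for the inflammasome, 18 were tested. Of these, 1 was called higher (5.56%, beside 2.71% of all tested genes) and 3 lower (16.7%, beside 5.6%). The gene called higher was Naip1, a sensor component for bacterial proteins, with 5 and 30 reads (log2 ratio 2.58, interval 1.43 to 4.54). Mefv, which encodes pyrin, had 11 and 1 reads (log2 ratio -2.42, interval -8.66 to -0.45). Casp4, the caspase that responds to lipopolysaccharide, had 42 and 6 reads (log2 ratio -2.41, interval -4.10 to -1.34). The median log2 ratio of the list was 0.12, beside -0.02 for all tested genes. When at least 100 reads were required, no gene of this list was called in either direction.

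Other genes of DNA sensing stayed on the near side of the threshold. Of 35 listed, 32 were tested. None was called in either direction, beside 2.71% of all tested genes called higher and 5.6% called lower. The median log2 ratio was -0.11. Cgas, the synthase that makes the second messenger for STING, had 43 control and 57 senescent reads (log2 ratio 0.62, interval 0.04 to 1.24). Tmem173, which encodes STING itself, was counted 110 and 35 times. Its log2 ratio was -1.40 (-2.01 to -0.86), close to the threshold, and 1 gene of the list was called lower when libraries were scaled by total count. Irf3, the transcription factor downstream of STING, had 2522 and 2067 reads (log2 ratio -0.06). The related Irf7, itself interferon-inducible, had 85 and 38 reads (log2 ratio -0.92). The genes not tested were Tlr9, Dnase1l3 and Trex1, named here after their values were seen. Every exon base of Trex1 also lies in an exon of Atrip, so its 0 reads cannot be interpreted.

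Interferon targets went in both directions, mostly lower. Of 62 listed, 52 were tested. None was called higher and 11 were called lower, or 21.2% beside 5.6% of all tested genes, and the median log2 ratio was -0.48. Ratios above 0 were found in 13 of the 52. Psmb9, an immunoproteasome subunit, had 123 control and 14 senescent reads (log2 ratio -2.83, interval -3.82 to -2.10). The chemokine gene Cxcl9 had 44 and 5 reads (-2.70), the guanylate-binding protein gene Gbp3 had 51 and 8 (-2.32) and Rtp4 had 14 and 1 (-2.74, interval -8.98 to -0.86). With at least 100 reads over both libraries required, 5 targets were called lower and none higher. With a threshold of 2 the lower calls were 6, and with a threshold of 1 there was 1 higher call, Ifit3, with 22 and 46 reads (log2 ratio 1.25, interval 0.53 to 2.10). The antiviral genes Rsad2 (3 and 9 reads), Mx1 (4 and 11) and Oas1a (7 and 14) had log2 ratios of 1.51, 1.46 and 1.11, with intervals that held 0. Ifit3, Rsad2, Mx1 and Oas1a were named after their values were seen.

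Among ligands, receptors and signal carriers of the interferon pathway, no type I interferon gene on the list had a read on it, Ifnb1 included, except Ifne with 0 control and 3 senescent reads. Of 17 tested genes of this list, 1 was called higher (5.88%, beside 2.71% of all tested genes) and none lower (beside 5.6%). The gene called higher was Socs1, a feedback inhibitor of JAK kinases, with 34 and 188 reads (log2 ratio 2.66, interval 2.16 to 3.27). The likeness of other genes to the summed PYHIN ratio could be judged only by that ratio over 2 libraries. Of 45 interferon genes with at least 100 reads, the nearest were Oasl1 with 79 and 133 reads (log2 ratio 0.97), Trim25 with 0.59 and Jak1 with 0.54, all below the summed value of 1.46. This rests on the minimum of 100 reads, since with 10 reads Mx1, Rsad2 and Ifit3 were nearer.

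**Figure D5:**
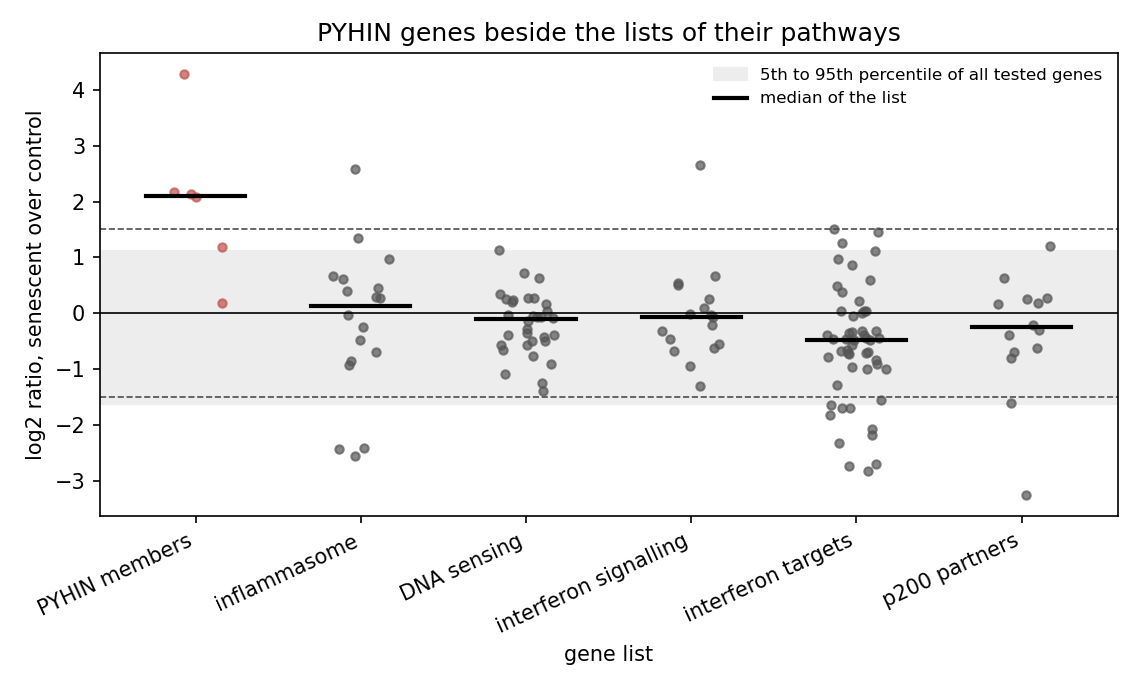
log2 ratio of senescent over control (vertical axis) for the tested genes of each list, 1 point per gene, with the list median (black bar), the thresholds of 1.5 (dashed) and the 5th to 95th percentile of all tested genes (grey band, -1.62 to 1.11). The PYHIN genes have a median of 2.11, and the interferon targets lie mostly below 0 with a median of -0.48.

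Because the family is best known in blood cells, markers of other cell types were read beside it. Of 22 macrophage markers, 5 had at least 10 reads. Ptprc, the pan-leukocyte gene for CD45, had 27 control and 76 senescent reads and was called higher (log2 ratio 1.68, interval 1.07 to 2.41). Csf1r had 15 and 40 reads and was called higher (1.58, interval 0.76 to 2.61). Mpeg1 had 28 and 4 reads and was called lower (-2.33). The summed level of the list was a CPM of 194.8 in control and 82.8 in senescent cells, nearly all from Cd14, and 3.89 and 7.02 without it. The 11 markers without reads included Adgre1, Clec4f, Timd4, Marco and C1qa. None of 11 lymphocyte markers had 10 reads, and their sums were 7 and 8 reads. Of 20 fibroblast, stellate and endothelial markers, 4 had at least 10 reads. Rgs5 (3 and 16 reads) and Vwf (8 and 24) were called higher, Col1a1 (21 and 1) was called lower and Eng (43 and 24) was not called. Over all these markers the sums were 30 and 26 reads for fibroblast and stellate cells and 57 and 62 for endothelial cells. For comparison, 2.71% of all tested genes were called higher and 5.6% lower. The part of these markers in the PYHIN values was not tested. Hepatocyte identity was also not level between the libraries. Alb went from 32076 to 2917 reads (log2 ratio -3.23), Apoa1, Foxa1 and Foxa3 were also called lower, and Cyp2e1 had 0 and 50 reads.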

How the data were processed

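RNAseq was performed by the authors on poly(A) RNA of AML12 cells, with RNA of 3 samples pooled into 1 library per condition. The authors deposited un-normalized counts of reads per Ensembl gene for both libraries. The submitters' processing notes name CASAVA, STAR, DESeq2, edgeR and the build mm10, which is GRCm38; the counting tool, the annotation and the use of strand are not given in the sources used here. Columns were assigned by the initials of the sample titles. Symbols were paired with 97.8% of the 35275 identifiers, and positions, exons and transcripts came from GENCODE M21.

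Counts were scaled by TMM (edgeR 4.0.16, R 4.3.3), and the factors were 1.04 (control) and 0.964 (senescent). Python 3.11.15, scipy 1.17.1 and pandas 2.3.3 served for ratios and exact intervals, alignments were made with Biopython 1.88 and plots with matplotlib 3.10.9. With 1 library per condition no test was possible, and neither edgeR's quasi-likelihood test nor that of DESeq2 (1.42.0, used for size factors only) was run. The steps were tested on simulated data that held counting error only, so the test does not cover the spread between cultures. The genes, lists, motifs and alternatives were chosen with earlier results of these data known. Named genes were the 6 members, other PYHIN genes with reads, 13 partners listed by name (1 of them is not reported here), of each list up to 4 called genes with the largest change in each direction, and the 3 interferon genes with ratios nearest to the summed members. Other genes, such as Ifne, Hnf4a, the keratins and markers without reads, were named after their values were seen; the alternatives were other scalings, prior counts, read minimums and thresholds.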

Additional observations from a re-analysis of the deposited data

How the results depend on the processing

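Aim2, Ifi203, Ifi207 and Mndal kept a log2 ratio above 1.5 under each of the 5 scalings and prior counts tried. Their ranges were 1.91 to 2.12 for Aim2, 2.06 to 2.18 for Ifi203, 4.03 to 4.35 for Ifi207 and 2.03 to 2.16 for Mndal. Ifi202b ranged from 1.08 to 1.19 and was called only with a threshold of 1, and Ifi204 ranged from 0.07 to 0.18. The number of members called was 4 under all alternatives except that threshold, where it was 5. Scaling by total count moved the median log2 ratio of all tested genes by -0.11 and brought the summed ratio of the members from 1.46 to 1.36, outside its counting interval. Over the PYHIN relatives, inflammasome, DNA sensing and interferon lists together, 3 genes were called higher and 14 lower. Of all tested genes 2.71% were called higher and 5.6% lower, and 5.09% were called higher with a threshold of 1. The higher genes of the lists became 5 with a minimum of 1 read, 1 with a minimum of 100 reads and 6 with a threshold of 1. The lower genes of the lists became 5 with a minimum of 100 reads, 9 with a threshold of 2, 10 with a prior count of 5 and 20 with a threshold of 1. Per kb of windows found in no other gene, a length chosen after seeing the shared sequence, Ifi204 was at 4.04 in control and 4.58 in senescent cells. No paired analysis was possible because each condition has 1 library. For genes with few reads, such as Aim2 and Casp1, depth limits the ratio, and the spread between cultures is unknown for all.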

Other observations

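Genes of proteins reported to bind p200 proteins, as the products of the PYHIN cluster are also called, were read as a separate list of 14, all of which were tested. None was called higher and 2 were called lower (14.3%, beside 5.6% of all tested genes), with a median log2 ratio of -0.25. Id3, an inhibitor of basic helix-loop-helix factors, was counted 569 times in control and 50 times in senescent cells (log2 ratio -3.26, 95% interval -3.73 to -2.86). Its relative Id1 had 2424 and 674 reads (-1.62, interval -1.74 to -1.49). The tumour suppressor genes Trp53 and Rb1 had log2 ratios of 0.26 and 0.19, far from the threshold of 1.5. Myc had the highest ratio of the list, 1.20 (1.12 to 1.27), and was named after its value was seen. These ratios rest on 1 library per condition and carry counting error only.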
